A study of Bos taurus with 23 samples.

Results

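Bovine blastocysts were compared with bovine morulae, the stage immediately before them, on 3 arrays of each stage out of 23 arrays in the series. The arrays were taken by their stage label alone, and all 24016 probe sets that are not controls were considered. Of these, 14571 lay above a log2 expression value of 4, the level treated here as background, on at least 2 of the 23 arrays and were tested. The embryos of both groups were derived in vivo from inseminated donor cows and recovered by flushing the uterus on day 7 or 8 after insemination, from 7 animals. Each morula array holds poly(A)+ RNA of a pool of 10 embryos and each blastocyst array that of a pool of 5 embryos. No genotype, treatment or donor age beyond this was given. The labels call the arrays biological replicates but do not say which cows or which day gave which pool. The p-values therefore measure the spread between pools, and pool size, and possibly day of recovery, cannot be told apart from stage. The other 17 arrays were oocytes matured in vitro or in vivo, zygotes and embryos at the 2-cell, 4-cell and 8-cell stages. They share the estimate of spread with the 6 arrays compared and show what each gene did earlier.

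Between the morula and the blastocyst a compact ball of cells becomes a hollow sphere. The outer cells form the trophectoderm, a polarised epithelium that seals itself with junctions, moves sodium inward and draws water after it, while the enclosed cells form the inner cell mass. In cattle the trophectoderm later elongates in the uterus and secretes interferon tau, the signal by which the cow recognises pregnancy. A pool of whole embryos mixes these lineages, so a change in the number of cells of one type and a change in the RNA per cell cannot be told apart here.

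The expression values are log2 values normalised together over all arrays. A difference of 1 is a doubling relative to the other transcripts, not per embryo or per cell. Of the 14571 probe sets, 1305 passed limma's moderated test at an adjusted p under 0.05, which is 8.96% of those tested. 771 were higher in blastocysts (5.29%) and 534 were lower (3.66%), so 59.1% of those that passed were rises. After centring the arrays on the spike-in controls in place of the deposited scale, 526 passed, of which 371 (70.5%) were rises. Read as genes, each through its brightest probe set, 674 of 7081 passed (9.52%), with 407 higher (5.75%) and 267 lower (3.77%). The median difference over all genes tested was -0.07. The 3 blastocyst arrays did not overlap the 3 morula arrays for 635 of the 674 genes, against 34.5% of all genes tested. The 674 genes passed a test on the same arrays, so this share is no separate support.

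**Figure D1:**
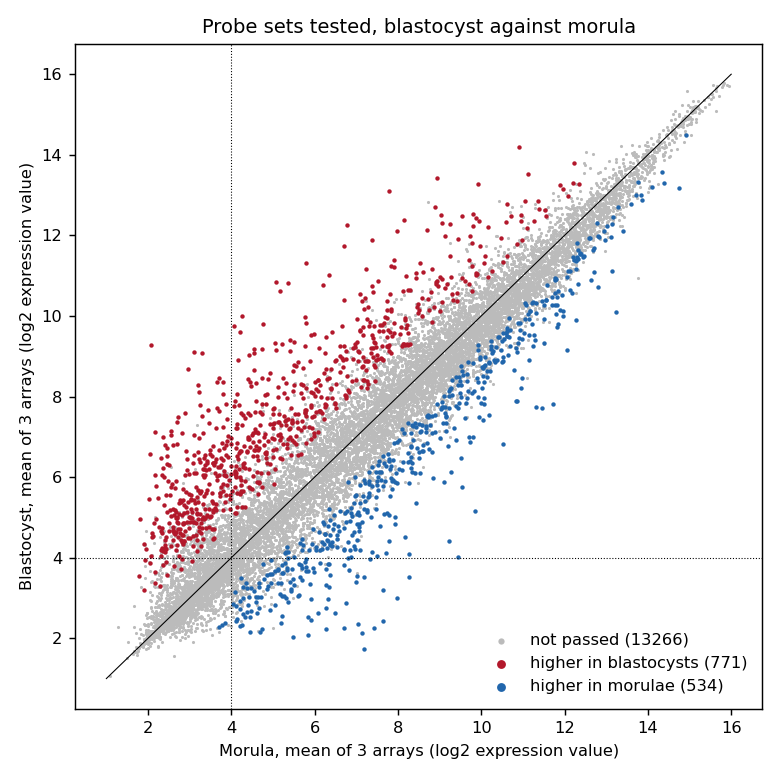
Mean log2 expression value of each tested probe set over 3 morula arrays (horizontal) against 3 blastocyst arrays (vertical), with 771 probe sets that passed and were higher in blastocysts in red and 534 that were lower in blue. Dotted lines mark the value of 4 taken as background and the diagonal marks equal values; the red points reach farther from the diagonal at low morula values.

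The count rests on the spread shared by all 8 groups. With the spread estimated from the 6 arrays alone, 264 probe sets and 144 genes passed, and 34 in place of 113 members of the gene lists described here. Without morula array 2 the count of probe sets fell to 749, and without blastocyst array 1 it fell to 776. Of the 24 genes named for the size of their change, 14 passed under every alternative fitted for their probe sets (averaging a gene's probe sets was not run for these 24), and the other 10 (EPAS1, HMOX1, PAGE4, HEBP2, SLC13A4, HBB, ETNPPL, IL6, CD36 and BRB) did not pass with the spread of the 6 arrays alone, with adjusted p between 0.055 and 0.15.

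The arrays of each stage were not equal. Over all probe sets tested, morula array 1 correlated with blastocyst array 2 (Pearson's r = 0.971) about as closely as with morula arrays 2 and 3 (r = 0.972 and 0.968). Blastocyst array 1 correlated less with the other blastocyst arrays (r = 0.951 and 0.955) than these did with each other (r = 0.975). Morula array 1 was the highest of the morula arrays for 66.3% of the probe sets that rose and the lowest for 68.9% of those that fell, against 36.5% and 30.8% of all probe sets tested. Blastocyst array 1 was the lowest blastocyst array for 67.4% of the falls and the highest for 45.9% of the rises, against 46.0% and 31.2% of all probe sets tested. With both arrays left out, 981 probe sets and 517 genes passed.

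**Figure D2:**
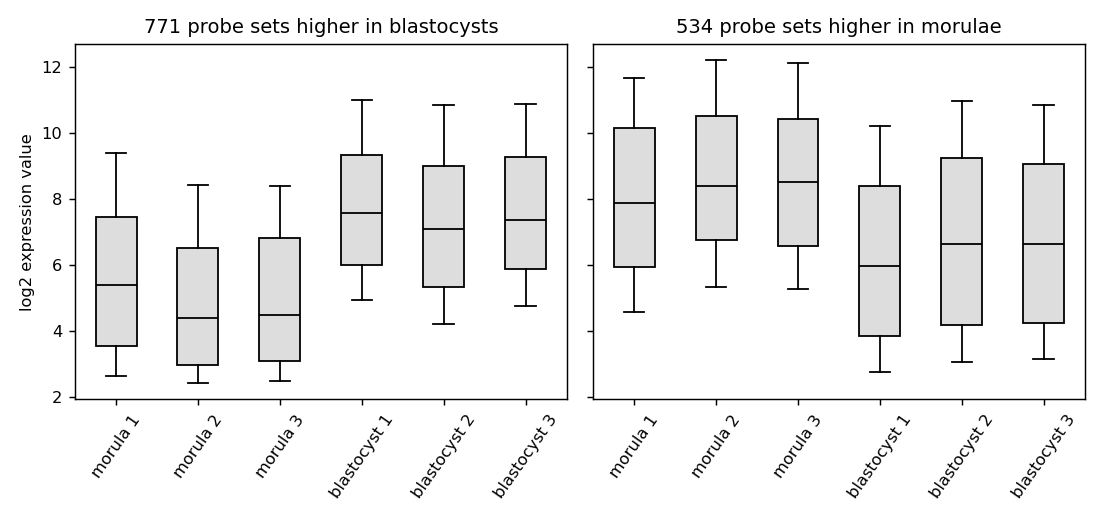
Log2 expression values on each of the 6 arrays for the 771 probe sets that were higher in blastocysts (left) and the 534 that were lower (right), as boxes of the quartiles with the median line and whiskers at the tenth and ninetieth percentiles. Among the morula arrays, array 1 lies nearest to the blastocysts in both panels, with a median of 5.39 against 4.40 and 4.47 for the rises.

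Among the 12 largest rises, genes of steroid, haem and ion handling stood beside regulators of development. UPP1, uridine phosphorylase, read 2.09, 2.05 and 2.05 on the morula arrays and 9.32, 8.07 and 10.41 on the blastocyst arrays. It was at background in every morula pool and far above it in every blastocyst pool, at least 38.6-fold higher (difference 7.21, SE 0.86, adjusted p = 1.4e-05). SLC9A3, a sodium-hydrogen exchanger of epithelial apical membranes, read 4.42, 2.70 and 2.74 in morulae and 8.79, 9.27 and 9.20 in blastocysts, at least 30.9-fold higher (difference 5.80, SE 0.46, adjusted p = 7.8e-08). CAV1, the coat protein of caveolae, read 3.03, 2.42 and 4.19 and then 8.42, 7.85 and 8.55, at least 18.6-fold higher. All 3 genes were far apart between the stages on every array.

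CRIPTO, also called TDGF1, is a co-receptor of the growth factor NODAL. It read 6.43, 6.97 and 6.92 in morulae and 13.29, 11.15 and 12.37 in blastocysts, 45.2-fold higher (difference 5.50, SE 0.40, adjusted p = 3.0e-08). It was present at an even, moderate level in all morula pools and was among the brighter probe sets in blastocysts. APOA1, the main protein of high-density lipoprotein, read 8.99, 6.93 and 7.44 and then 12.57, 12.74 and 13.97, 39.6-fold higher (SE 0.63 on the log2 scale). PLEKHO2, a protein with a phosphoinositide-binding domain, read 4.05, 2.39 and 2.40 and then 8.62, 8.77 and 8.64, at least 25.4-fold higher.

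In the remaining large rises morula array 1 was already partly raised. EPAS1, a hypoxia-inducible transcription factor, read 7.25 on that array and 2.56 and 2.95 on the other morula arrays, against 10.15, 10.60 and 9.27 in blastocysts. HMOX1, haem oxygenase, read 7.40, 2.37 and 2.45 in morulae and 10.07, 10.42 and 8.78 in blastocysts, and SLC13A4, a sodium-coupled sulfate transporter, 6.82, 2.73 and 3.08 against 9.90, 9.95 and 8.96. For all 3 genes morula array 1 was above background and the other morula pools were below it. PAGE4, an X-linked gene of placenta and testis, read 8.30, 3.19 and 5.86 and then 11.26, 10.58 and 12.14 (adjusted p = 7.2e-05). HEBP2, a haem-binding protein, read 8.40, 2.98 and 4.72 and then 10.80, 10.74 and 10.89 (adjusted p = 0.0088), and its call ended without morula array 2 (adjusted p = 0.072). A second EPAS1 probe set, read at 2.44, 2.44 and 2.43 and then 2.79, 3.19 and 2.43, did not pass.

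**Figure D3:**
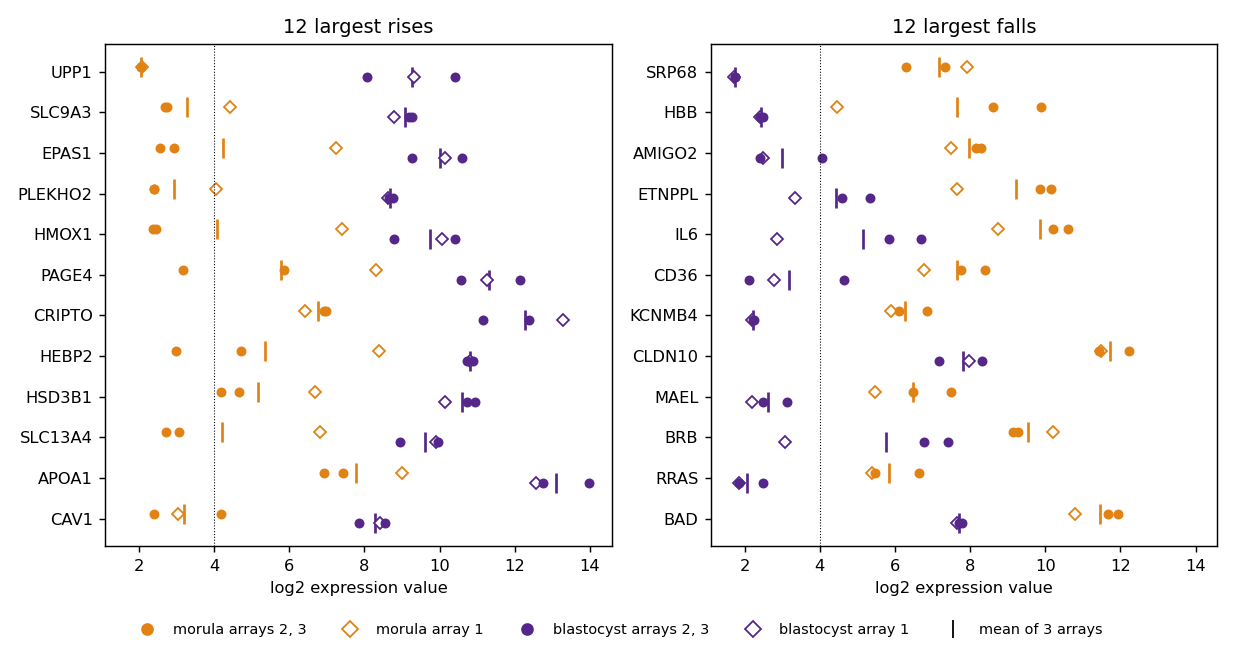
Log2 expression values on each morula array (orange) and blastocyst array (purple) for the 12 largest rises and 12 largest falls, with open diamonds for array 1 of each stage and vertical bars for means of 3 arrays. The groups are separate for all 24 genes because the choice required it. For EPAS1, HMOX1, SLC13A4 and HEBP2 morula array 1 lies between the other morula arrays and the blastocysts.

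The largest falls held adhesion, signalling and germline genes. AMIGO2, a neuronal adhesion protein, read 7.49, 8.16 and 8.29 in morulae and 2.49, 4.07 and 2.42 in blastocysts, at least 15.5-fold lower (difference -4.99, SE 0.35, adjusted p = 2.1e-08). A second, brighter AMIGO2 probe set also fell, by 2.18 on the log2 scale (adjusted p = 0.0014). It read 11.26, 11.75 and 11.53 in morulae and 8.73, 9.81 and 9.45 in blastocysts, 4.54-fold lower and above background at both stages. IL6, a cytokine that signals through STAT3, read 8.73, 10.20 and 10.62 and then 2.87, 5.86 and 6.71. Every morula pool lay above every blastocyst pool for both genes, which the choice required, and blastocyst array 1 had the lowest IL6 value by a wide margin. ETNPPL, an enzyme that degrades phosphoethanolamine, read 7.66, 10.15 and 9.86 and then 3.34, 5.33 and 4.60, at least 23.9-fold lower. BRB, a ribonuclease of the pancreatic type, read 10.20, 9.14 and 9.29 and then 3.07, 6.76 and 7.43.

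BAD, which promotes cell death by binding BCL2 proteins, read 10.79, 11.93 and 11.68 in morulae and 7.64, 7.79 and 7.71 in blastocysts, 13.5-fold lower (difference -3.75, SE 0.36, adjusted p = 1.1e-06). The blastocyst pools were nearly identical and all lay far below the morula pools. MAEL, which protects the germline from transposons through piRNAs, read 5.48, 6.48 and 7.49 and then 2.21, 2.50 and 3.14, at least 5.59-fold lower. KCNMB4, a subunit of calcium-activated potassium channels, read 5.89, 6.85 and 6.10 and then 2.20, 2.24 and 2.23. RRAS, a small GTPase, read 5.39, 6.65 and 5.47 and then 1.86, 1.86 and 2.50. Both were at background in all blastocyst pools. SRP68, a protein of the signal recognition particle, read 7.91, 7.32 and 6.30 and then 1.72, 1.74 and 1.75 on the probe set with the largest fitted fall (difference -5.44). Its blastocyst values were all below background, and counted from 4 the fall was at least 9.04-fold, less than those of ETNPPL, AMIGO2 or BAD. A brighter SRP68 probe set read 9.64, 9.58 and 9.69 and then 7.61, 9.57 and 8.48 and did not pass (adjusted p = 0.32), so its probe sets disagree in call.

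Several genes of the trophectoderm programme rose, and those already bright in the morula moved little. Of 15 tested regulators and markers of trophectoderm, 4 rose and none fell (26.7% against 9.52% of all genes tested). The median difference was 0.65 against -0.07 over all genes. TFAP2A, the transcription factor AP-2 alpha, read 6.63, 2.91 and 2.92 in morulae and 10.05, 7.90 and 8.76 in blastocysts, at least 16.3-fold higher (difference 4.75, SE 0.67, adjusted p = 8.5e-05). OVOL1, a zinc finger transcription factor of epithelial and trophoblast differentiation, read 9.14, 6.62 and 7.45 and then 10.76, 10.27 and 9.45 (adjusted p = 0.0053). EPAS1, described above, also rose. With the spread of the 6 arrays alone, TFAP2A, OVOL1, EPAS1 and KRT8 did not pass (limma, adjusted p = 0.11, 0.14, 0.090 and 0.28).

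KRT8, the keratin of simple epithelia, read 6.06, 2.91 and 3.97 in morulae and 8.47, 6.74 and 5.12 in blastocysts. The groups overlapped, and its call (adjusted p = 0.028) ended when morula array 2 or 3 or blastocyst array 1 or 2 was left out, with adjusted p from 0.058 to 0.21. Its partner KRT18 was already at 15.23, 14.79 and 14.80 in morulae and read 15.61, 15.60 and 15.56 in blastocysts, with an adjusted p of 0.95. DAB2, an endocytic adaptor, read between 11.88 and 12.35 in morulae and between 12.46 and 12.98 in blastocysts, and TEAD4, the Hippo pathway factor needed for trophectoderm, between 9.23 and 9.42 and then between 8.56 and 9.09. Neither passed. ELF3, an epithelial ETS factor, read 5.68, 2.56 and 3.17 and then 7.63, 6.15 and 6.36, just outside the threshold. CDX2 and GATA3 were not analysed here.

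Trophoblast secretory and steroidogenic products of ruminants were mostly silent or higher in blastocysts. Of 33 with a probe set, 23 were at or below 4 on all 6 arrays. 10 passed the filter, which admits a gene through the group where it is high, and of these 6 rose and none fell. TKDP1, a trophoblast Kunitz-domain protein, read 6.91, 2.91 and 4.44 in morulae and 9.93, 9.47 and 10.00 in blastocysts, at least 25.8-fold higher (difference 5.05, SE 0.58, adjusted p = 8.7e-06). SSLP1, a secreted Ly-6 family protein, read 8.22, 7.05 and 6.89 and then 11.40, 11.58 and 12.66, 22.5-fold higher (SE 0.44, adjusted p = 1.2e-06). PAG2, a pregnancy-associated glycoprotein, read 11.33, 5.35 and 10.50 and then 11.99, 12.92 and 12.03. A single morula pool was low for PAG2, the others lay within 3 log2 units of every blastocyst pool, and the call (adjusted p = 0.025) ended without blastocyst array 1 or 2 (adjusted p = 0.062 and 0.080).

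Interferon tau did not follow these genes. IFNT2 read 9.32, 6.95 and 6.63 in morulae and 5.29, 8.78 and 9.80 in blastocysts, so the stages overlapped fully (difference 0.32, SE 0.76, adjusted p = 0.94). The highest morula pool was array 1 and the lowest blastocyst pool was also array 1. Of 14 tested genes of the interferon response, none passed in the limma fit (2 had an unadjusted p under 0.05), and the median difference was -0.07, equal to that of all genes.

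Prostaglandin and steroid synthesis rose in 6 of 22 tested genes and fell in none (27.3% against 9.52% of all genes tested). The median difference was 0.58. PTGS2, the inducible cyclooxygenase that starts prostaglandin synthesis, read 10.88, 8.52 and 10.34 in morulae and 12.88, 13.44 and 13.55 in blastocysts, 10.3-fold higher (SE 0.50, adjusted p = 0.00016). AKR1B1, the aldo-keto reductase that makes prostaglandin F2alpha in cattle, read 9.91, 9.47 and 10.25 and then 11.99, 12.32 and 12.96, 5.85-fold higher (SE 0.40, adjusted p = 0.0003). PLA2G7, a phospholipase that inactivates platelet-activating factor, read 2.69, 2.68 and 2.68 and then 7.93, 6.60 and 7.58, at least 10.3-fold higher. Each of the 3 was higher in every blastocyst pool than in every morula pool.

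STAR, CYP11A1 and HSD3B1, which act in turn on the way from cholesterol to progesterone, each rose. STAR, which carries cholesterol into mitochondria, read 8.73, 5.51 and 7.34 in morulae and 10.35, 10.15 and 10.02 in blastocysts (adjusted p = 0.00053). CYP11A1, which cleaves the cholesterol side chain, read 4.21, 2.11 and 3.44 and then 7.17, 7.43 and 8.74, and its call (adjusted p = 0.0089) ended without morula array 2 (adjusted p = 0.061). HSD3B1, which makes progesterone, read 6.68, 4.20 and 4.66 and then 10.14, 10.74 and 10.95, 43.1-fold higher (SE 0.89, adjusted p = 0.00044). CYP19A1, the aromatase that makes oestrogens, read 5.84, 4.95 and 3.86 and then 6.13, 6.81 and 4.85, with overlapping groups, and did not pass (adjusted p = 0.26). STAR, CYP11A1 and HSD3B1 are also made by cumulus and granulosa cells. Each gene read through its brightest probe set, the only 4 of 19 tested members of the cumulus and granulosa list that passed were PTGS2, STAR, CYP11A1 and HSD3B1. Of the 29 genes of that list, 17 were at or below 4 on all 6 arrays, FSHR, INHA and HSD17B1 among them. HAS2, SERPINE2 and TIMP1 were above 9 on all 6 arrays and did not pass, and TNFAIP6 read 2.67, 2.65 and 2.66 and then 6.06, 2.86 and 5.22 (adjusted p = 0.090). A second HAS2 probe set passed as a fall, from 10.72, 11.03 and 11.17 to 8.34, 9.40 and 10.55 (limma, adjusted p = 0.046). Another HAS2 probe set was below 4 on all 6 arrays, so its probe sets disagree in level and call. The summed log2 level ran from 115 to 126 in morulae and from 138 to 145 in blastocysts.

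Cholesterol synthesis rose in 5 of 18 tested genes and fell in none (27.8% against 9.52% of all genes tested). The median difference was 0.82, with 15 members above 0. CYP51A1, lanosterol demethylase, read 8.35, 6.26 and 7.09 in morulae and 10.63, 11.99 and 10.84 in blastocysts, 15.2-fold higher (SE 0.44, adjusted p = 7.7e-06). HMGCS1, which makes HMG-CoA, read 10.82, 10.05 and 10.99 and then 12.74, 13.46 and 12.14, 4.47-fold higher (SE 0.26, adjusted p = 1.4e-05). INSIG1 and INSIG2, which hold the sterol-sensing complex in the endoplasmic reticulum, rose by 3.65 and 1.13 log2 units. MSMO1, a sterol methyl oxidase, rose by 0.93, and its call ended without blastocyst array 2 (adjusted p = 0.056). Neither INSIG2 nor MSMO1 passed after centring on the spike-in controls (adjusted p = 0.19 and 0.33), and INSIG2 did not pass when its probe sets were averaged (adjusted p = 0.22).

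The list of pluripotency and inner cell mass genes moved in both directions, with 6 tested, CRIPTO higher, SOX2 lower and a median of -0.68. SOX2, a core pluripotency factor, read 8.35, 10.24 and 9.81 in morulae and 7.75, 7.97 and 7.76 in blastocysts, 3.11-fold lower (adjusted p = 0.027). The groups did not overlap, but the call ended without morula array 2 or 3 or blastocyst array 1 or 3 (adjusted p from 0.071 to 0.17). POU5F1, which encodes OCT4, was bright at both stages, between 13.09 and 13.39 in morulae and between 12.32 and 12.91 in blastocysts, with an adjusted p of 0.63. KLF4 read between 13.96 and 14.21 and then between 13.01 and 13.51 (adjusted p = 0.10). NANOG was not analysed here.

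Primitive endoderm is the layer of the inner cell mass that lines the cavity. Of 15 tested genes of its list, APOA1 alone passed (6.7% against 9.52% of all genes tested) and the median was -0.02. GATA6, its early transcription factor, was already at 13.65, 13.76 and 13.62 in morulae and read 13.43, 13.51 and 13.35 in blastocysts. PDGFRA, its receptor tyrosine kinase, read 11.02, 12.20 and 11.05 and then 12.12, 11.48 and 11.85. GATA4, a later marker, was at background on all 6 arrays, between 2.85 and 3.30. SOX17 was not analysed here.

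Epithelial genes moved in both directions within families. Of 19 tight junction genes, CLDN3 rose and CLDN10 fell (10.5% against 9.52% of all genes tested). The median difference was 0.29. CLDN3, a sealing claudin, read 4.64, 4.60 and 3.96 in morulae and 8.81, 8.08 and 8.40 in blastocysts, at least 16.2-fold higher (SE 0.78, adjusted p = 0.0023). CLDN10, a claudin that forms ion-selective pores, read 11.48, 12.22 and 11.43 and then 7.97, 7.16 and 8.33, 14.8-fold lower (SE 0.54, adjusted p = 7.6e-05). The pools of each stage were close together for both claudins, and both passed under every alternative fitted for them.

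Cell-cell contacts showed the same mixture. Of 17 adherens junction and desmosome genes, 3 rose and 2 fell (29.4% against 9.52% of all genes tested), with a median of 0.00. CDH2, N-cadherin, read 3.46, 3.28 and 3.72 in morulae and 7.14, 6.52 and 6.09 in blastocysts, at least 5.99-fold higher (SE 0.26, adjusted p = 1.9e-07). DSC2, a desmosomal cadherin, read 10.22, 8.97 and 9.45 and then 12.61, 12.10 and 12.77, 7.70-fold higher (SE 0.39, adjusted p = 4.9e-05). GJB5, a gap junction connexin, fell from 10.94, 12.03 and 10.96 to 6.69, 8.51 and 8.05, 11.8-fold (SE 0.38, adjusted p = 4.8e-06). The CDH3 call ended without any one of 4 arrays and the PKP3 call without morula array 3 (limma, adjusted p = 0.081). Neither CDH3 nor PKP3 passed after centring on the spike-in controls (adjusted p = 0.17 and 0.21). CDH1, E-cadherin, read between 12.72 and 13.11 and then between 12.32 and 12.76 and did not pass.

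The keratins parted as well, with 2 of 13 up and 1 down (23.1% against 9.52% of all genes tested). KRT5, a keratin of basal epithelial cells, read 12.62, 13.67 and 13.42 in morulae and 8.52, 11.04 and 10.70 in blastocysts, 8.88-fold lower (SE 0.67, adjusted p = 0.0044). KRT19, a keratin of simple epithelia, read 12.16, 9.23 and 11.33 and then 14.14, 14.10 and 14.37, with no overlap. Its adjusted p of 0.031 rose to between 0.062 and 0.19 when any array other than morula array 1 was left out.

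Of the ion transport list, 4 of 17 rose and none fell (23.5% against 9.52% of all genes tested), with a median of 0.25. Besides SLC9A3 these were 2 carbonic anhydrases and an epithelial sodium channel subunit. CA4, a membrane-anchored carbonic anhydrase, was at background in morulae, at 2.18, 2.16 and 2.16, and read 6.86, 6.33 and 8.17 in blastocysts, at least 8.69-fold higher (SE 0.33, adjusted p = 1.3e-08). CA2, the cytosolic form, read 2.98, 2.93 and 2.93 and then 5.62, 4.26 and 5.53 (adjusted p = 0.0031). SCNN1G was near background at both stages, at most 3.33 in morulae and at most 4.47 in blastocysts, and its call ended without any one of 5 of the 6 arrays. The sodium pump subunits did not pass. ATP1B1 read 7.52, 7.13 and 7.57 and then 10.79, 8.39 and 7.66 (adjusted p = 0.064), and ATP1B3 stayed between 14.62 and 15.03 on all 6 arrays. Of 3 aquaporins tested, AQP11 alone was called, as a fall with overlapping groups that ended without morula array 1 or 3 or blastocyst array 1 or 3.

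**Figure D4:**
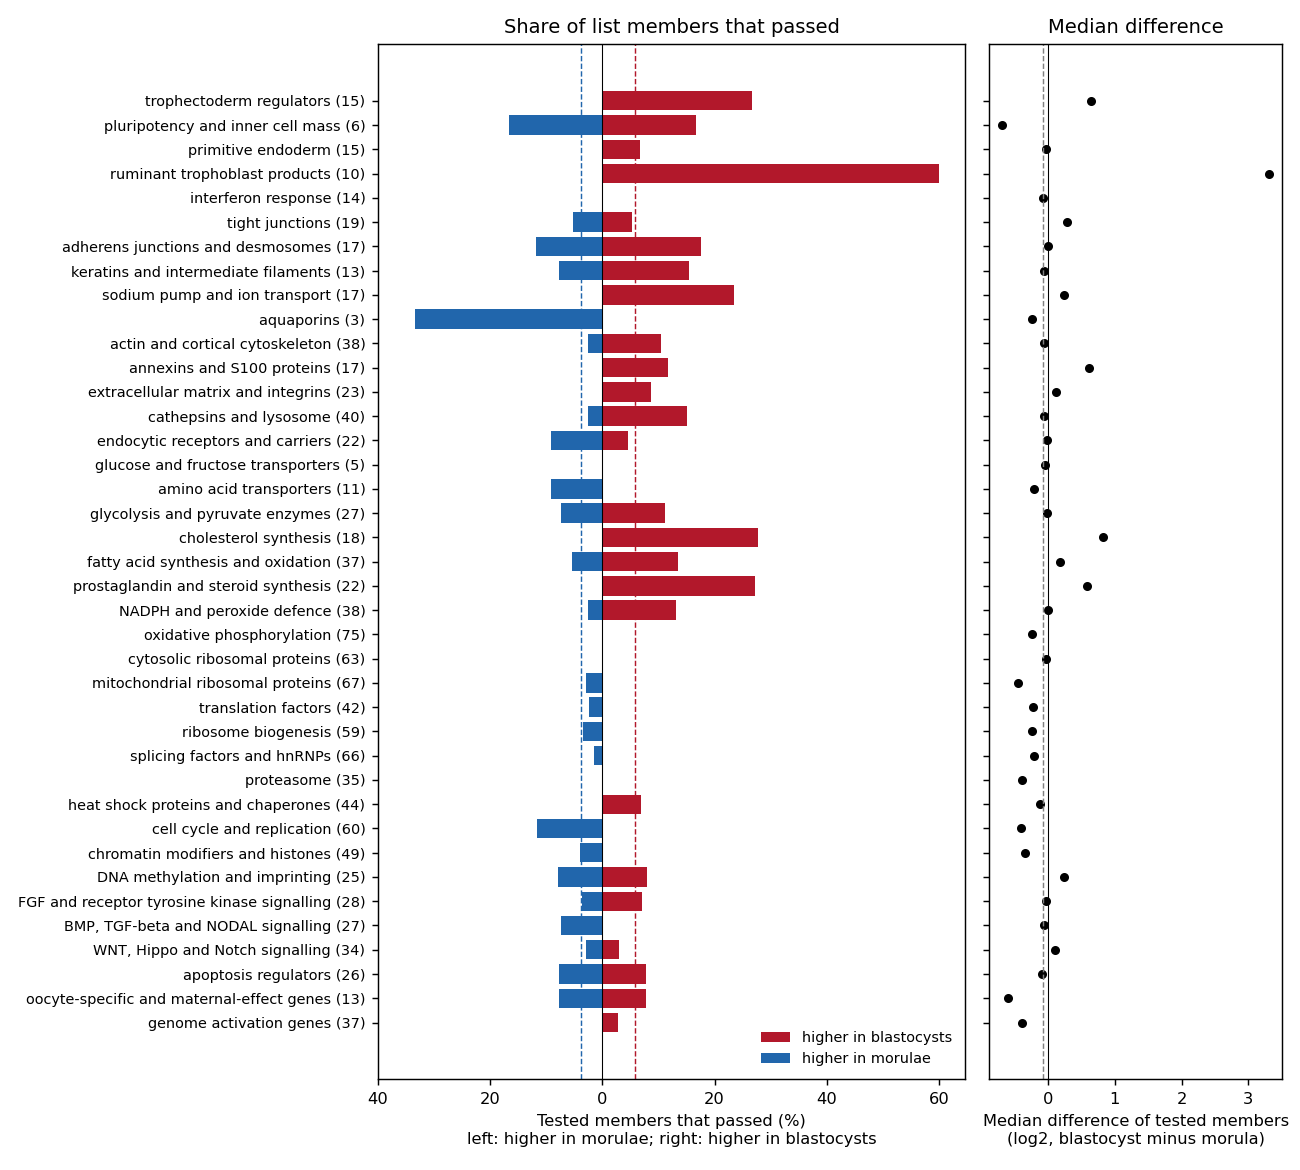
For each gene list, with the number of tested members in brackets, the percentage that passed as higher in blastocysts (red, right) or in morulae (blue, left), beside the median log2 difference of all tested members (right panel). Dashed lines give the values over all genes tested, 5.75% up, 3.77% down and a median of -0.07; ruminant trophoblast products lie farthest to the right with 60.0% up, of the 10 of 33 members that passed the filter, and several lists of a few genes have large shares from 1 gene.

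Cytoskeletal and membrane-binding proteins were mostly not called. Of 38 genes of actin and the cell cortex, 4 rose and 1 fell (13.2% against 9.52% of all genes tested). ARPC1B, a subunit of the actin-nucleating ARP2/3 complex, read 10.53, 7.68 and 8.87 in morulae and 12.26, 12.22 and 13.01 in blastocysts, 11.1-fold higher (SE 0.65, adjusted p = 0.0016). FLNA, an actin cross-linker, rose by 2.33 log2 units, while CNN3, a calponin, fell by 1.80. Of 17 annexins and S100 proteins, ANXA3 rose by 3.42 (SE 0.57) and ANXA4 by 3.98 (SE 0.75), and none fell. These calls are 11.8% of that list. Of 23 matrix and integrin genes, NID1 and DAG1 rose (8.7%). Neither call held when single arrays were left out, with 5 arrays of 6 ending each.

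Lysosomal and uptake genes held several rises. Of 40 cathepsin and lysosome genes, 6 rose and 1 fell (17.5% against 9.52% of all genes tested), with a median of -0.05. ASAH1, acid ceramidase, read 6.77, 3.55 and 6.16 in morulae and 9.55, 9.23 and 9.31 in blastocysts, at least 13.2-fold higher (SE 0.66, adjusted p = 0.00075). CTSZ, a cathepsin, read 10.83, 9.16 and 9.86 and then 12.31, 12.29 and 12.47, 5.31-fold higher (SE 0.49, adjusted p = 0.0035). MAN2B1, the lysosomal alpha-mannosidase, rose by 2.23 (SE 0.26). Other calls on this list were less stable. The CD63 call ended without any one of 5 arrays, ATP6V0A1 without any one of 4 and LAMP1 without any one of 3. CD63, ATP6V0A1, LAMP1 and CTSF did not pass after centring on the spike-in controls (limma, adjusted p = 0.25, 0.21, 0.27 and 0.071). Of 22 endocytic receptors and lipid carriers, FABP5 rose while CD36 and TFRC fell (13.6%). CD36, a fatty acid receptor, read 6.78, 7.77 and 8.40 and then 2.80, 4.64 and 2.12. TFRC, the transferrin receptor, fell by 1.62, a call that ended without morula array 2 or 3 or blastocyst array 1 or 3.

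Lipid enzymes differed in direction. Of 37 genes of fatty acid synthesis and oxidation, 5 rose and 2 fell (18.9% against 9.52% of all genes tested), with a median of 0.19. FADS2, a fatty acid desaturase, read 8.27, 7.46 and 7.31 in morulae and 9.96, 10.09 and 9.87 in blastocysts, 4.91-fold higher (SE 0.47, adjusted p = 0.0034). AGPAT3, an acyltransferase of phospholipid synthesis, rose by 3.13 (SE 0.50). ELOVL6, an elongase, read 12.64, 13.36 and 13.38 and then 10.35, 11.74 and 11.24, 4.06-fold lower (SE 0.36, adjusted p = 0.0011). PLIN2, a lipid droplet coat protein, fell by 0.87, and its call ended without morula array 2 or 3 or blastocyst array 1. The SCD5 call ended without any one of 5 arrays, FADS3 without any one of 4 and ELOVL7 without either of 2. SCD5, FADS3, ELOVL7 and PLIN2 did not pass on the spike-in scale (limma, adjusted p = 0.064, 0.21, 0.069 and 0.37).

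Genes of sugar metabolism were called in both directions. None of 5 tested glucose and fructose transporters passed in the limma fit (1 had an unadjusted p under 0.05), and of 27 glycolytic and pyruvate genes 3 rose and 2 fell, 18.5% against 9.52% of all genes tested, with a median of -0.01. TPI1, triose phosphate isomerase, and PFKFB3, which makes the activator of phosphofructokinase, rose by 3.55 and 2.30, and ALDOC, an aldolase, fell by 1.95, but each call ended without any one of 4 of the 6 arrays. PFKL, liver phosphofructokinase, rose by 1.37 (SE 0.27), and PDK3, a kinase that inhibits pyruvate dehydrogenase, fell by 1.29 (SE 0.30), a call that ended without morula array 2 (adjusted p = 0.055) or blastocyst array 1 (adjusted p = 0.057). Of 11 amino acid transporters, SLC1A5, which carries glutamine, fell from 8.95, 10.27 and 9.59 to 6.71, 7.84 and 7.89, 4.36-fold (SE 0.31, adjusted p = 0.00015). Of 38 genes of NADPH supply and peroxide defence, 5 rose and 1 fell (15.8%). ME2, a mitochondrial malic enzyme, rose by 3.73 (SE 0.71) and MGST2, a glutathione transferase, by 2.83 (SE 0.59), whereas PRDX4, a peroxiredoxin of the endoplasmic reticulum, fell by 1.48 (SE 0.32). PFKL, PDK3 and PRDX4 did not pass on the spike-in scale (adjusted p = 0.17, 0.25 and 0.12).

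The genes of basic cell machinery were seldom called, and their medians lay at or below 0. None of 75 oxidative phosphorylation genes (median -0.24), 63 cytosolic ribosomal proteins (median -0.02) or 35 proteasome genes (median -0.39) passed in the limma fit, and 3, 0 and 6 of them had an unadjusted p under 0.05. As in all lists, each gene was read through its brightest probe set. Dimmer probe sets of COX6C and RPL3 passed as rises in that fit (adjusted p = 0.0029 and 0.011). Dimmer ones of COX6A1 and MRPL39 passed as falls (adjusted p = 0.028 and 0.015). Of 67 mitochondrial ribosomal proteins, 66 had a difference below 0 and 2 passed, both falls, with a median of -0.45. The 2 were MRPL18 and MRPS23, and neither passed without morula array 3 or blastocyst array 1. Without blastocyst array 1 the median was -0.29. Of 66 splicing factors, HNRNPH3 fell by 0.74, and of 59 genes of ribosome biogenesis UTP18 and PNO1 fell by 1.30 and 0.85. None of these 3 passed on the scale centred on the spike-in controls. Of 42 translation factors EIF2B1 alone was called, as a fall of 0.99 that ended without any one of 5 of the 6 arrays. Dimmer probe sets of EIF4H and PABPC1 passed as falls (limma, adjusted p = 0.0305 and 0.0303). Of 44 heat shock proteins and chaperones, HSPH1, CALR and IFT25 (also called HSPB11) rose and none fell, with a median of -0.12, and each of these calls ended without morula array 3 (adjusted p = 0.054, 0.18 and 0.072).

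Cell cycle and replication genes fell in 7 of 60 cases and rose in none, with a median of -0.40. This is 11.7%, against 9.52% of all genes tested in either direction and 3.77% lower. KIF20A, a kinesin of cytokinesis, read 11.62, 11.99 and 12.04 in morulae and 9.31, 10.30 and 10.79 in blastocysts, 3.36-fold lower (SE 0.31, adjusted p = 0.00095). CCNB1, the mitotic cyclin B, read 12.64, 13.06 and 13.18 and then 11.95, 11.57 and 12.17, 2.09-fold lower (SE 0.17, adjusted p = 0.00046). ORC6, a subunit of the origin recognition complex, fell by 1.23 (SE 0.27). The count was 3 without morula array 2 or blastocyst array 1, 10 falls without morula array 1, and 1 after centring on the spike-in controls, where KIF20A remained.

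Of 25 genes of DNA methylation and imprinting, 2 rose and 2 fell, 16.0% against 9.52% of all genes tested, the second fall being GNAS, whose call ended without morula array 1 or 2 or blastocyst array 1 or 3. DNMT1, the maintenance DNA methyltransferase, read 7.54, 8.09 and 7.46 in morulae and 5.47, 6.68 and 5.54 in blastocysts, 3.48-fold lower (SE 0.35, adjusted p = 0.0021; 0.060 on the spike-in scale). MEG3, an imprinted noncoding RNA of the maternal allele, was at 2.94, 2.87 and 3.01 and then 7.56, 4.85 and 6.94, at least 5.46-fold higher (SE 0.44, adjusted p = 2.2e-05). Its other 3 probe sets tested rose too. ASCL2, an imprinted trophoblast factor, read 3.33, 2.95 and 3.29 and then 5.03, 4.49 and 5.36 (adjusted p = 0.00021). Dimmer probe sets of MEST and DNMT3A passed as rises of 4.18 and 1.87 (limma, adjusted p = 3.4e-05 and 0.028). Their brighter probe sets, through which these genes were read, did not pass (adjusted p = 0.56 and 0.29). Of 49 chromatin modifiers and histones, RBBP4 and RBBP7 alone were called (4.1%), with falls of 0.49 and 0.43, and neither passed without blastocyst array 1 or with either other scaling. Dimmer probe sets of EED passed as rises (limma, adjusted p = 0.00466 and 0.00555). The many other tested probe sets labelled EED did not pass, differed in both directions and ranged widely in level.

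Signalling genes changed one by one, with 2 rises and 1 fall among 28 genes of FGF and other receptor kinases. There were 2 falls among 27 of the TGF-beta family and 1 rise and 1 fall among 34 of the WNT, Hippo and Notch pathways. These shares were 10.7%, 7.4% and 5.9%, against 9.52% of all genes tested. FGF1, a fibroblast growth factor, rose by 1.49 (SE 0.27) and MAPK3, the kinase ERK1, by 1.23 (SE 0.24), and neither passed on the spike-in scale (adjusted p = 0.12 and 0.23). FGF1 did not pass when its probe sets were averaged (adjusted p = 0.34). IGFBP2, an insulin-like growth factor binding protein, read 5.96, 6.05 and 6.11 in morulae and 4.44, 4.22 and 3.88 in blastocysts (adjusted p = 0.0085; 0.061 on the spike-in scale). TGFBI, a matrix protein induced by TGF-beta, read 10.55, 11.87 and 10.48 and then 8.21, 8.45 and 7.96, 6.76-fold lower (SE 0.66, adjusted p = 0.010), and its call ended without morula array 2 (adjusted p = 0.074). WNT6 rose by 1.64 (SE 0.36), but not on the spike-in scale (adjusted p = 0.13). DKK1, a WNT inhibitor, and BMPR1A, a BMP receptor, were called as falls that each ended without any one of 4 of the 6 arrays. Of 26 regulators of apoptosis, HTRA2 and MDM2 rose and BAD and FAS fell (15.4%). The HTRA2 call ended without morula array 3 or blastocyst array 3, and MDM2, whose groups overlapped, lost its call without any one of 4 arrays. FAS, a death receptor, read 6.52, 5.75 and 5.62 and then 3.65, 4.00 and 3.54, with all blastocyst pools close to 4 and below every morula pool.

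The earlier stages show where these genes came from, as a description without a test. Of the 407 genes that rose, 236 (58.0%) had a mean above 4 in in vivo matured oocytes and 208 (51.1%) in 8-cell embryos, against 81.1% and 82.9% of all genes tested. 131 of them (32.2%) were above 4 in none of the 5 earlier in vivo groups, against 7.0% of all genes. Of the 267 that fell, 202 (75.7%) were above 4 in the oocyte and 226 (84.6%) at the 8-cell stage. The filter bears on these shares, since a gene silent in all earlier groups was tested only where morulae or blastocysts, or single arrays elsewhere, were above 4.

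Some rises were returns. FABP5, which binds fatty acids, had means between 12.47 and 13.43 from the in vivo oocyte to the 8-cell stage, read 9.35, 6.72 and 7.84 in morulae, and 11.59, 12.12 and 12.61 in blastocysts, 17.6-fold higher than in morulae (SE 0.45, adjusted p = 4.9e-06). MYC, the growth-promoting transcription factor, had a mean of 10.52 ± 0.77 (SD, n = 4) in 8-cell embryos, was at background in morulae at 2.61, 3.24 and 2.60, and read 7.15, 6.94 and 7.18 in blastocysts, at least 8.52-fold higher (SE 0.43, adjusted p = 1.9e-06). EPAS1 had a mean of 9.66 ± 0.30 (SD, n = 3) in in vivo oocytes and STAR one of 13.61 ± 0.09 (SD, n = 3). FABP5, EPAS1 and STAR had their lowest in vivo mean in the morula, whereas MYC was as low before the 8-cell stage. Of 37 genes on a list of genome activation, MYC alone was called, and the median was -0.38. SLC13A4 was likewise at 8.82 ± 0.40 (SD, n = 4) in 8-cell embryos.

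Some falls ended a short peak. IL6 had means of 2.48 to 2.52 from oocyte to 4-cell and 3.53 ± 1.21 (SD, n = 4) at the 8-cell stage, 9.85 ± 0.99 (SD, n = 3) in morulae and 5.15 ± 2.01 (SD, n = 3) in blastocysts. GJB5 had means of 6.84 ± 0.25 (SD, n = 4), 11.31 ± 0.62 (SD, n = 3) and 7.75 ± 0.95 (SD, n = 3) in the last 3 of these groups. KRT5 and FAS were highest in morulae as well. AMIGO2 on the named probe set and ETNPPL had their peak at the 8-cell stage, with means of 13.06 and 12.08, and lower means in morulae and again in blastocysts. MAEL had a mean of 11.67 ± 0.25 (SD, n = 3) in in vivo oocytes and a lower mean at each stage after the 4-cell stage. Of 13 oocyte-specific and maternal-effect genes, OOEP, of the subcortical maternal complex, rose by 1.60 and SYCP3, of the synaptonemal complex, fell by 1.16, neither of them on the spike-in scale (adjusted p = 0.060 and 0.14). CLDN10 was bright in oocytes, low at the 8-cell stage with a mean of 5.53, high again in morulae and lower in blastocysts.

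**Figure D5:**
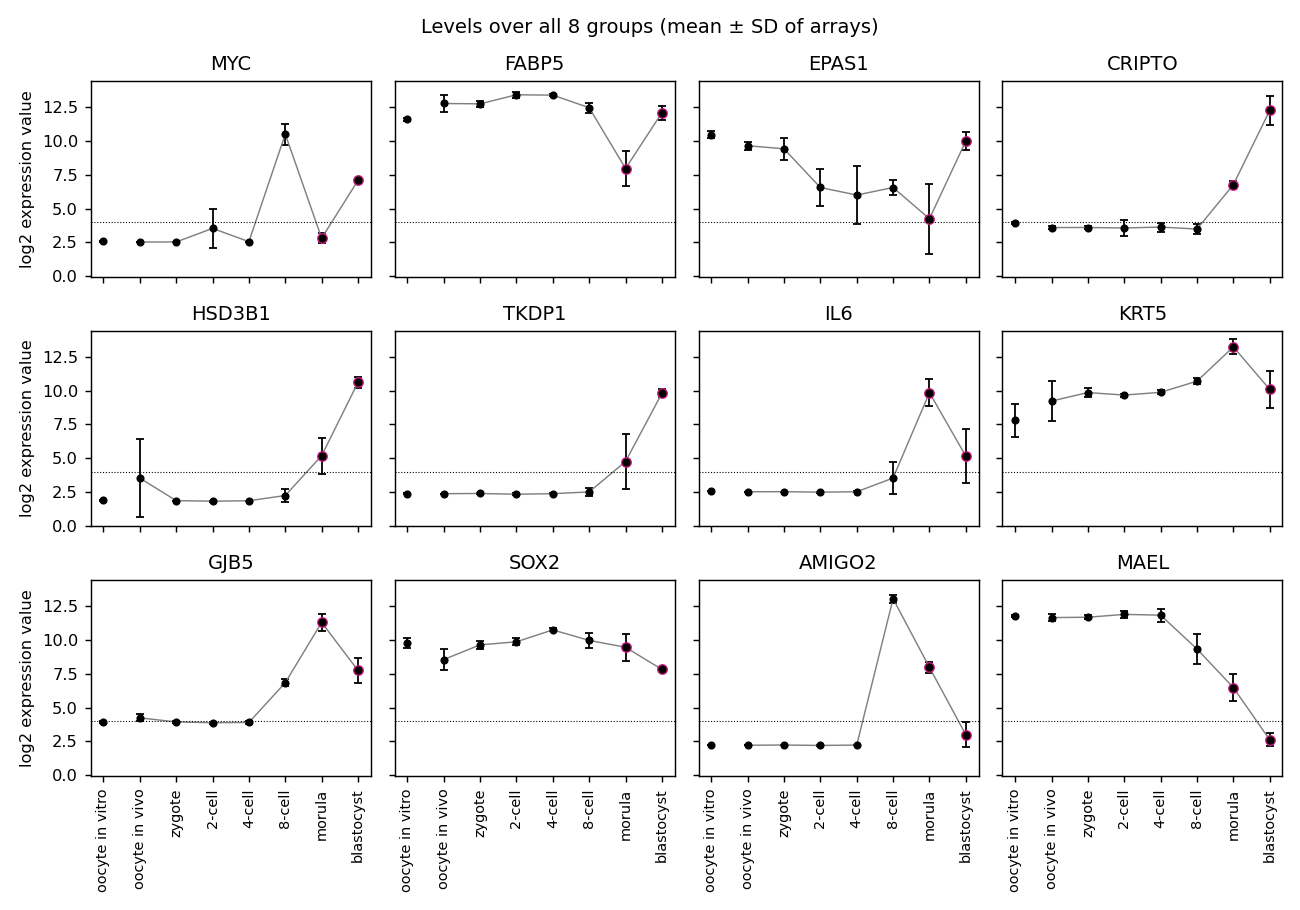
Mean log2 expression value with SD over the 2 to 4 arrays of each of the 8 groups for 12 genes that passed between morula and blastocyst (pink rims mark these stages; the grey line joins the in vivo groups; the dotted line is at 4). FABP5 and EPAS1 have their lowest mean in the morula and MYC is low there between a high 8-cell mean and the blastocyst, IL6, KRT5 and GJB5 their peak, and AMIGO2 peaks at the 8-cell stage.

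Transcripts that mark other cells were read on the same arrays. Of 17 oviduct and uterine genes, 10 were tested and MUC1 alone passed (10.0% against 9.52% of all genes tested). It read 4.12, 2.76 and 2.80 in morulae and 6.43, 6.27 and 6.63 in blastocysts. LTF (13.18), BPIFB1 (13.49) and TFF3 (7.61) were bright on blastocyst array 1 alone, with LTF between 2.42 and 3.14 on the other 5 arrays. Of the 17 genes, 9 were at or below 4 on all 6 arrays, OVGP1, SERPINA14, PAEP and PIGR among them. C3 lay between 8.94 and 10.30 on all 6 arrays, SPP1 read 7.11, 7.46 and 6.62 and then 3.21, 3.62 and 6.51, and CST6 read 4.39, 4.40 and 5.75 and then 7.22, 6.57 and 6.10, none of which passed. The summed log2 level of this list ran from 57.6 to 61.5 in morulae and from 58.6 to 85.6 in blastocysts, the highest on array 1. AREG (7.27) and NTS (5.19) of the cumulus list were also above background on blastocyst array 1 alone. Of 24 blood and leukocyte genes, 9 were tested and 2 passed (22.2%), both as falls. HBB fell, reading 4.45, 8.62 and 9.89 in morulae and 2.41, 2.42 and 2.49 in blastocysts. HBG fell too, at 2.45, 8.28 and 10.37 and then between 2.26 and 2.41, but its call ended in 5 of the 6 fits that left out an array. In 8-cell embryos HBB had a mean of 8.92 ± 2.02 (SD, n = 4) and HBG one of 9.60 ± 2.15 (SD, n = 4). Both had means below 4 in every earlier group. Of the 24 genes, 20 were at or below 4 on all 6 arrays, HBA, PTPRC, CD3E, CD14, CD68 and TYROBP among them. CD52 lay between 5.27 and 5.61 on all 6 arrays, and BOLA-DRB3 between 3.89 and 4.37 in morulae and between 4.70 and 5.40 in blastocysts, and neither passed. The summed level ran from 67.8 to 81.4 and then from 64.4 to 65.8. Of 11 sperm and testis genes TNP1, a transition protein, rose by 2.82, and 7 genes were at or below 4 on all 6 arrays, PRM1 and ODF1 among them, with summed levels of 40.3 to 43.4 and 45.0 to 46.1. The part of such cells in the differences between stages was not tested.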

How the data were processed

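Poly(A)+ RNA of pooled embryos was hybridised as biotin-labelled cRNA to Affymetrix bovine GeneChips, 1 sample per array. The deposited values are log2 expression values, normalised over all 23 arrays with GCRMA 2.0.0, per the submitters' processing notes; array annotation of genome position was not given in the sources used here. GCRMA forces equal distributions, so values are relative to other transcripts, and their number of arrays limits precision. The 112 control probe sets were left out. Of 24016 others, 13292 carried 1 gene symbol, 86 several and 10638 none in the platform annotation, and 13263 matched RefSeq by gene ID. Probe sets above 4 on at least 2 of 23 arrays were tested with limma 3.58.1 in R 4.3.3, as group means of 8 groups, contrast blastocyst minus morula, eBayes with trend, two-sided, with Benjamini-Hochberg adjustment over all 14571 tested and a threshold of 0.05. The scripts were tested on simulated data. A gene was read from its tested probe set with the highest mean over the 23 arrays. A fold is called "at least" where an array of the lower group was below 4, with such arrays set to 4.

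Named genes were the 12 largest rises and 12 largest falls that passed, with non-overlapping arrays, the higher group above 4 on every array and 1 established symbol, plus members of gene lists, up to 4 passing per list and defining genes that did not pass. A few further list members, such as PAG2, STAR, AKR1B1, MSMO1, PLIN2, PDK3 and CCNB1, were described beyond this rule after their values were seen. The stages and gene lists were chosen with earlier results of these data known. Promoter motifs and sequences were not analysed here, though a motif description had been planned. Alternatives covered the filter, scaling, spread estimate, array weights, block, gene summary and each array left out; leaving out morula array 1 and blastocyst array 1 together was added after seeing the data.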

Additional observations from a re-analysis of the deposited data

Results flagged for a closer look

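PAGE4, one of the largest rises, read 4.03 on 1 of the 4 8-cell arrays (array 4) and between 2.60 and 2.79 on the other 3. APOA1 did the same on another 8-cell array (array 1), with 4.03 against values between 2.59 and 2.82. Both were found by checking the 8-cell arrays of the 24 named genes for a value far from the others, a check that chance alone meets in about 1 of 20 groups. All of these values lie at or close to the background of 4, where values carry no order. Neither value enters the difference between morula and blastocyst, where APOA1 and PAGE4 were both chosen among genes separated on all arrays.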

How the results depend on the processing

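The 24 genes named for their size and the 103 further list genes that passed kept their direction under the alternatives fitted for them; averaging probe sets was run for the 103 and not for the 24, and genes that did not pass were not followed. The main counts were 1305 probe sets, 674 genes and 113 list members. With the spread from the 6 arrays alone they were 264, 144 and 34, and with arrays centred on the spike-in controls 526, 280 and 59, with 211 genes up and 69 down; spike-in medians ran from 9.93 to 11.56 over the morula arrays and from 10.46 to 10.87 over the blastocyst arrays, and the cause of the lower counts was not tested. Leaving out 1 array at a time gave 749 to 1390 probe sets, 402 to 723 genes and 75 to 131 list members. The lowest counts came without morula array 2 (749, 402 and 75); without morula array 3 they were 836, 436 and 78, and without blastocyst array 1 they were 776, 413 and 79. The other alternatives stayed within 1.5 times the main counts: filters gave 1186 to 1423 probe sets, median centring 1177, no trend 1286 and array weights 1836. The replicate numbers do not pair the arrays: deviations of same-numbered arrays correlated at -0.036, -0.113 and 0.088, and with a replicate block 1404 probe sets, 720 genes and 127 list members passed. Of 103 further list genes that passed, 14 kept their call under every one. Of 89 further probe sets of genes that rose, 34 rose and none fell, and of 87 of genes that fell, 27 fell and none rose; the others did not pass. Values below 4 carry no order, so changes among dim probe sets are limited by background.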

Other observations

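Outside the lists, 3 genes of the matriptase system, which works at epithelial surfaces, were picked because their values were higher in blastocysts, so that their shared direction is a matter of the choice. PRSS8, the membrane protease prostasin, read 9.58, 6.27 and 7.83 in morulae and 10.53, 11.47 and 11.68 in blastocysts, 10.1-fold higher (limma, SE 0.57, adjusted p = 0.00071). ST14, matriptase, read 7.86, 5.67 and 7.25 and then 9.69, 8.68 and 9.27, 4.87-fold higher (SE 0.42, adjusted p = 0.0015). SPINT1, an inhibitor of matriptase, read 3.15, 3.14 and 3.99 and then 5.19, 5.51 and 6.30 (adjusted p = 4.9e-05). No array of one stage overlapped the other for these genes, and they were not followed under the alternatives.

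Enzymes of serine, glycine and folate metabolism, also chosen after their values were seen, moved in both directions. MTHFD2, a mitochondrial folate dehydrogenase, read 10.27, 9.34 and 8.69 in morulae and 11.79, 12.34 and 11.63 in blastocysts, 5.60-fold higher (SE 0.39, adjusted p = 0.0003). PHGDH, the first enzyme of serine synthesis, read 4.87, 4.51 and 1.78 and then 7.65, 4.59 and 6.51, with overlapping groups (adjusted p = 0.015). SHMT2, the mitochondrial serine hydroxymethyltransferase, fell from 8.64, 9.35 and 8.67 to 5.93, 7.57 and 7.86 (adjusted p = 0.014). AMT and GCSH, both of the glycine cleavage system, each fell by 1.55 log2 units, with adjusted p of 0.029 and 0.046.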
